A study of Mus musculus with 65 samples.

Results

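Ctss, Laptm5, Mpeg1, Ly86, Pld4, Cd68, Lgmn, Ctsz and Ctsb encode 9 proteins of lysosomes and endosomes that are associated with microglia. They were found by gene symbol among the 50686 genes of the count table, and all 9 were present. The retinas came from adult C57BL/6J mice, 65 in 16 groups, with 1 library for each mouse and no transgene in the labels. Mice on control diet (CD, labelled vehicle, n = 5) were compared with mice fed PLX5622, an inhibitor of the CSF1 receptor on which microglia depend for survival. The diet was given for 2 (DEP2), 5 (DEP5), 7 (DEP7), 10 (DEP10), 14 (DEP14) or 21 days (DEP21). Mice in which microglia repopulated after the drug was withdrawn were taken at 3 (REPOP3), 5 (REPOP5), 7 (REPOP7), 10 (REPOP10), 14 (REPOP14) or 21 days (REPOP21), or at 2 months (REPOP60). Lipopolysaccharide, a bacterial wall component that activates innate immune cells, was given to control mice (LPSCD, n = 3) and to mice labelled PLX5622 + LPS (LPSREPOP, n = 4), for which the labels give no day of repopulation. DEP5 had 3 mice, REPOP7 had 6 and each other depletion or repopulation group had 4.

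Microglia are the resident phagocytes of the retina, and what they engulf is broken down in lysosomes by acid proteases and hydrolases. Cathepsins S, B and Z (Ctss, Ctsb, Ctsz) and legumain (Lgmn) are cysteine proteases of this compartment, and cathepsin S trims the invariant chain of MHC class II molecules in antigen-presenting cells. Such enzymes are also made by neurons, pigment epithelium and other cells, so a gene of the lysosome need not be a gene of microglia. The level left on PLX5622 holds the transcript of other retinal cells and that of any microglia that remain. In RNA of whole retina, fewer microglia and less RNA per microglial cell cannot be told apart.

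The total count ranged from 5106429 to 8760443 per mouse (median 7944665), with the lowest in REPOP21 replicate 1. A level is given in CPM, the count of a gene scaled to the total count of the mouse, and 3 counts, the limit that a count of 0 allows, corresponded to 0.342 CPM in the deepest library and 0.587 CPM in the shallowest. The sample titles end in RE (39 mice) or re (26 mice), which is called the suffix here. The first principal component held 55.7% of the variance over 12347 genes and placed every re library above every RE library. CD had 3 RE and 2 re mice, DEP5 had RE mice only, and REPOP60, LPSCD and LPSREPOP had re mice only. The suffix was therefore a term in each fit that held both suffixes, which is each except LPSREPOP against LPSCD. The comparisons of REPOP60 and LPSCD with CD rest on the 2 re mice of CD. Of these, 1 is described as CD_2M (replicate 2M here), and the labels do not say what 2M means for it. The REPOP60 mice are described as RP2M. The summed level of 16 microglial marker genes, Cx3cr1 and Tmem119 among them, was 41.2 to 59.4 CPM in CD and 10.9 to 17.2 CPM in the 19 mice of DEP5 to DEP21, and C1qb and Siglech had 0 counts in all of those 19 mice. All 5 rod photoreceptor genes, which mark retina, had counts in every group. Of the 16 microglial genes, 13 were called lower in those 19 mice than in CD. The median log2 fold change of the 16 was -4.48, a larger fall than that of their sum.

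The sequences upstream of Ly86 and Lgmn, which had the smallest and the largest ratio of mean CPM on PLX5622 to mean CPM in CD, are shown with that of Ctss, which was added after its motif was seen. They are the bases of the RefSeq promoter entries (GRCm38.p6) that lie before the annotated start, read 5′ to 3′ on the strand of the gene. The Ly86 bases lie at chr13:37345095-37345207 on the plus strand, the Lgmn bases at chr12:102439814-102439978 on the minus strand and the Ctss bases at chr3:95526536-95526785 on the plus strand. Capitals mark the letters GAGGAA, the core recognised by PU.1, a transcription factor of myeloid cells.
Ly86: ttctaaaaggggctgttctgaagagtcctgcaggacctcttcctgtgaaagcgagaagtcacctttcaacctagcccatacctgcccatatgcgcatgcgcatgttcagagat
Lgmn: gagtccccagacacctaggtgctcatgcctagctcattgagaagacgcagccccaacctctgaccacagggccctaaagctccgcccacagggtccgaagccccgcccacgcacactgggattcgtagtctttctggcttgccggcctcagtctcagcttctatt
Ctss: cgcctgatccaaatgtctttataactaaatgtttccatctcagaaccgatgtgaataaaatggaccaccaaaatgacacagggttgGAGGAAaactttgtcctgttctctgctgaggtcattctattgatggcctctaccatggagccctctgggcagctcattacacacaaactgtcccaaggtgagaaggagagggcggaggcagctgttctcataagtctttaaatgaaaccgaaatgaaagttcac
Promoter entries matched 8 of the 9 members, with 2 for Lgmn. GAGGAA or its complement TTCCTC was found on either strand within 250 bases before the RefSeq start of Ctss (164 bases before), Laptm5 (38 bases before) and Cd68 (225 bases before), against 23.3% of 32851 promoters of this length. The match of Laptm5 lies inside the gene as GENCODE annotates it, since GENCODE places the start at 130913125, upstream of the RefSeq start. The longer form GAGGAAGT or ACTTCCTC, which overlaps the shorter one, was in none of the member promoters and in 2.44% of all. The E-box core CACGTG, bound by the lysosomal regulator TFEB among others, was found only in the second Lgmn entry and in 6.02% of all promoters. A match is a description of letters and not a binding site.

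In control retinas the members spanned a wide range of levels. Per transcript length, as the FPKM values of the authors, Ctsb stood highest at 75.8 ± 2.70 (SD, n = 5), followed by Lgmn at 70.9 ± 2.79 and Ctsz at 13.73 ± 1. Ctss followed at 4.35 ± 0.863 FPKM, Laptm5 at 2.53 ± 0.374 and Cd68 at 1.299 ± 0.435. Mpeg1 at 0.935 ± 0.132 FPKM and Ly86 at 0.905 ± 0.281 differed by less than their SDs, and Cd68 and Mpeg1 by less than the SD of Cd68. Pld4 was lowest at 0.257 ± 0.191 FPKM. The 3 members of highest level were those that kept most of it on PLX5622.

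The first question was how much of each member remained once microglia were depleted, comparing the 19 mice of DEP5 to DEP21 with CD. Of the 9 members 5 fell at a Benjamini-Hochberg FDR under 0.01 in the quasi-likelihood test of edgeR (Ctss, Laptm5, Mpeg1, Ly86 and Pld4), while 0.161% of 26155 genes tested were called lower. For these 5, each of the 19 depleted mice lay below the lowest CD mouse. The share of all genes without overlap between groups was not counted, here or in the comparisons below. Among RE mice alone (15 against 3) the same test called all 5, and among re mice alone (4 against 2), where 1 residual degree of freedom remained, it called 0. The median log2 fold change of the 9 members was -1.60 and that of all genes tested was -0.0075.

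Ctss (ENSMUSG00000038642, GRCm38 chromosome 3, 95526786 to 95556403, plus strand) encodes cathepsin S. In CD it was at 5.27, 7.03, 10.3, 8.13 and 4.02 CPM, with both re mice below the 3 RE mice. In DEP5 to DEP21 it ranged from 0 to 0.799 CPM (median 0.117), with no count in 9 of the 19 mice. The mean fell from 6.96 ± 2.46 (SD, n = 5) to 0.106 ± 0.183 CPM (n = 19), which left 1.53%, and the log2 fold change was -6.16 ± 0.28 (SE, FDR = 2.54e-18). The 95% interval of the percent left, from the fit, ran from 0.936 to 2.08%.

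Laptm5 (ENSMUSG00000028581, chromosome 4, 130913125 to 130936141, plus strand) encodes a lysosomal membrane protein of blood-lineage cells. It was at 5.27, 3.63, 4.66, 5.42 and 3.88 CPM in CD and between 0 and 0.615 CPM in the depleted mice (median 0.123). The percent left was 3.998% (95% interval 2.61 to 5.98%), with a log2 fold change of -4.66 ± 0.29 (FDR = 3.50e-14). The groups were apart by a wide margin, as for Ctss.

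Ly86 (ENSMUSG00000021423, chromosome 13, 37345208 to 37419036, plus strand) encodes MD-1, the partner protein of the receptor RP105. It was low in CD, at 0.922, 0.938, 0.630, 1.41 and 0.670 CPM, and 18 of the 19 depleted mice had no count. With 1 count in the depleted mice against 37 in CD, the ratio of the rates was 0.701% (exact 95% counting interval 0.0173 to 4.16%), and the difference passed the test (FDR = 8.26e-07). The single count was in DEP10 replicate 1, a re mouse. The interval takes in that of Ctss, so which of the 2 genes had less left was not resolved.

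Pld4 (ENSMUSG00000052160, chromosome 12, 112760655 to 112768990, plus strand) encodes an endolysosomal nuclease that degrades single-stranded nucleic acid. It was at 0.658, 1.41, 1.26, 1.53 and 0.803 CPM in CD and between 0 and 0.272 CPM in the depleted mice (median 0.12), with 9.31% left (95% interval 5.32 to 16.7%). Its log2 fold change was -3.41 ± 0.41 (FDR = 8.60e-07). All values of the depleted mice were 1 or 2 counts or 0, so in each mouse its level lies within the limit that a count of 0 allows.

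Mpeg1 (ENSMUSG00000046805, chromosome 19, 12460779 to 12465283, plus strand) encodes perforin-2, a pore-forming protein of macrophage phagosomes. It was at 3.69, 4.10, 3.78, 4.47 and 4.95 CPM in CD and between 0.233 and 2.39 CPM in the depleted mice (median 1.37). All 19 depleted mice had counts, and the groups did not overlap. The percent left was 32.6% (95% interval 24.6 to 44.4%) and the log2 fold change -1.60 ± 0.21 (FDR = 6.61e-06). Day by day the mean was between 30.3% of CD in DEP10 and 35.2% in DEP21. The intervals of Mpeg1 and of Ctss, Laptm5, Ly86 and Pld4 did not overlap, although the difference between genes was not tested. Within the suffixes, RE and re, the percent left was 1.48 and 0.724% for Ctss, 4.11 and 3.59% for Laptm5, 7.61 and 13.9% for Pld4, and 33.1 and 32.4% for Mpeg1.

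**Figure D1:**
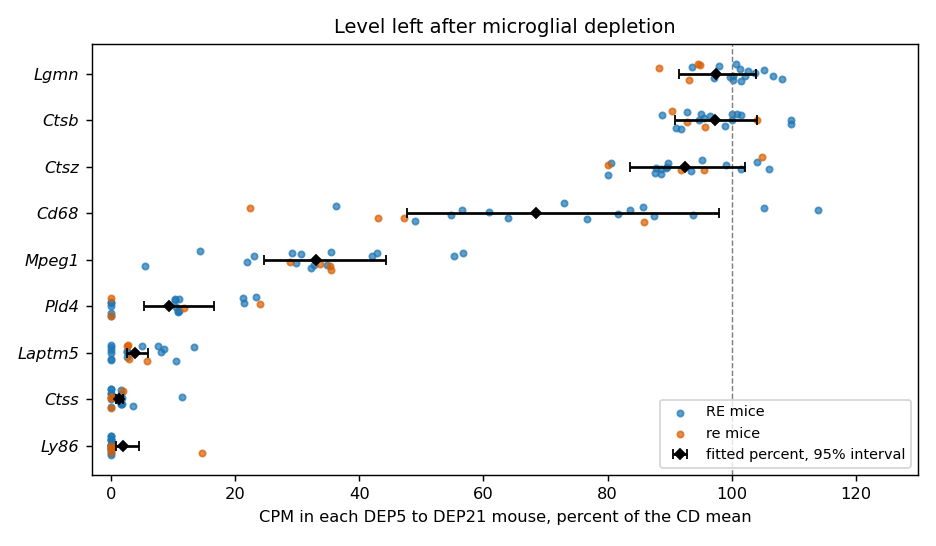
CPM of each member in each of the 19 mice of DEP5 to DEP21 as a percent of the mean of the 5 CD mice (x axis), with 1 row for each gene, points coloured by suffix, and a diamond and bar for the fitted percent and its 95% interval. Ly86, Ctss, Laptm5 and Pld4 lie near 0, Mpeg1 near 33%, Cd68 spreads widely, and Ctsz, Ctsb and Lgmn lie around 100%.

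Cd68 (ENSMUSG00000018774, chromosome 11, 69664213 to 69666153, minus strand) encodes macrosialin, a heavily glycosylated lysosomal membrane protein that is widely stained as a marker of phagocytic microglia. It did not pass the test. Its level was 2.11, 0.938, 1.39, 1.77 and 2.41 CPM in CD and 0.385 to 1.96 CPM in the depleted mice (median 1.26), and 5 of the 19 lay below the lowest CD mouse. The percent left was 69.5% (95% interval 47.8 to 98.0%; log2 fold change -0.55 ± 0.26, FDR = 0.821). It depended on the suffix, at 94.5% among RE mice and 37.8% among re mice, so these counts did not fix how much Cd68 remained.

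Lgmn (ENSMUSG00000021190, chromosome 12, 102394084 to 102439813, minus strand), Ctsz (ENSMUSG00000016256, chromosome 2, 174427493 to 174439039, minus strand) and Ctsb (ENSMUSG00000021939, chromosome 14, 63122462 to 63145923, plus strand) did not pass the test either. Lgmn was at 149, 169, 175, 154 and 147 CPM in CD and at 140 to 171 CPM in the depleted mice (median 159), with 99.5% left (95% interval of the fit 91.4 to 104%). Ctsb was at 347, 375, 338, 357 and 365 CPM in CD and at 316 to 391 CPM in the depleted mice (median 341), with 97.3% left (95% interval 90.8 to 104%). Ctsz was at 22.3, 25.4, 24.1, 24.5 and 26.8 CPM in CD and at 19.7 to 26.1 CPM in the depleted mice (median 22.1), with 92.2% left (95% interval 83.6 to 102%).
The groups overlapped for all 3, and for Ctsz 10 of the 19 depleted mice lay below the lowest CD mouse. The SD of Ctsb between CD mice, 14.6 CPM, was more than the whole CD level of Ctss, 6.96 CPM, so a loss of that size was not detectable in Ctsb. The annotated Ctsb gene shares 774 bases with Fdft1 on the opposite strand, Ctsz shares 10 bases with Nelfcd on the opposite strand, and Ctss shares 557 bases with the pseudogene Hmgb1-ps5. Whether the counting used strand is not given in the sources used here, so reads in the bases that Ctsb or Ctsz shares are uncertain. Hmgb1-ps5 is on the same strand as Ctss, so strand would not separate reads in the bases they share.

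Genes of the same families and compartment served as comparators. None of Ctsl and Ctsd (cathepsins L and D), Laptm4a and Laptm4b (relatives of Laptm5), Pld3 (a relative of Pld4), Ly96 (MD-2, a relative of MD-1) and the abundant lysosomal membrane proteins Lamp1 and Lamp2 passed the test in DEP5 to DEP21. Their log2 fold changes lay between -0.12 for Pld3 and 0.34 for Ly96. The mean level of Laptm4b was 338 ± 48.8 CPM in CD (SD, n = 5) and 324 ± 46.6 CPM in the depleted mice (n = 19). That of Pld3 was 105 ± 13.3 CPM in CD and 92.1 ± 15.7 CPM in the depleted mice.
A further 94 lysosomal and endosomal genes (proteases, cystatins, acid hydrolases, membrane proteins, V-ATPase subunits, endosomal receptors and transcription factors) were listed, of which 91 were tested in this comparison, with a median log2 fold change of -0.04. No gene of these lists was called in the other 11 comparisons.

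**Figure D2:**
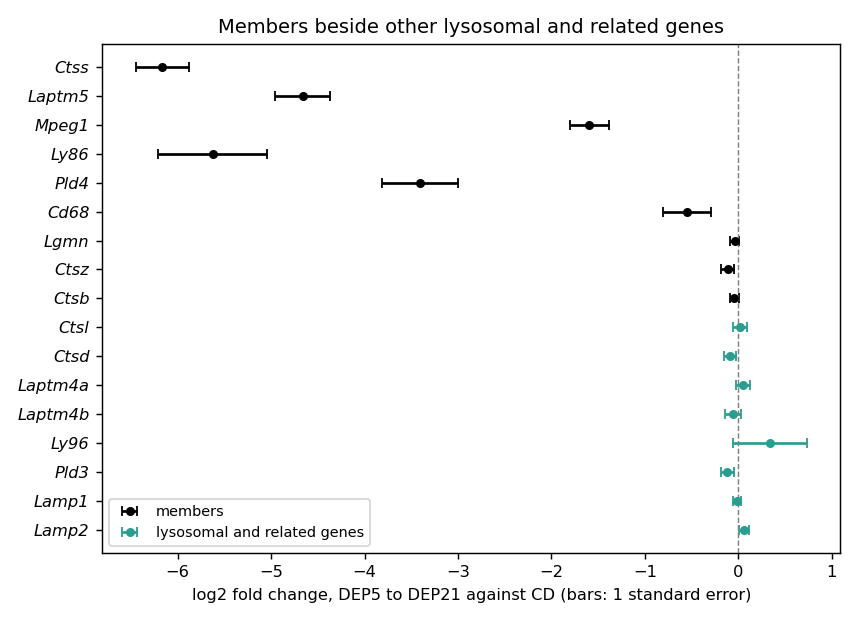
Log2 fold change of DEP5 to DEP21 (19 mice) against CD (5 mice) for the 9 members in black and for the 8 comparators in green, with bars of 1 standard error. Ctss is farthest from 0 at -6.16, and Ctsl, Ctsd, Laptm4a, Laptm4b, Pld3, Lamp1 and Lamp2 lie within 0.12 of 0.

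The depleted mice were also examined for other myeloid cells. The summed level of 6 genes of perivascular and border macrophages was 11.9 to 17.2 CPM in CD and 12.2 to 19.6 CPM in DEP5 to DEP21. Nearly all of it was Lyve1, a gene also used by lymphatic vessels, at a mean of 14.4 CPM in CD and 16.4 CPM in the depleted mice. Mrc1, the mannose receptor that marks such macrophages, had a mean of 0.146 CPM in CD and 0.0391 CPM in the depleted mice. Pf4, F13a1 and Cd209f had no count in CD, and Cd209f had none in the depleted mice. These marker genes were singled out after their values were seen. The summed level of 6 genes of monocytes and neutrophils was 0 to 4.03 CPM in CD and 0 to 1.57 CPM in the depleted mice. The part of such cells in the remaining Mpeg1 and Cd68 was not tested.

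How soon the members fell was read from DEP2. Against CD, 3 of the 9 fell after 2 days (Ctss, Laptm5 and Mpeg1), where 0.0543% of 23946 genes were called lower. Ctss was at 0.399, 0.471, 0.255 and 0.700 CPM in DEP2 (log2 fold change -3.99 ± 0.28, FDR = 1.36e-11), and Laptm5 was at 0.665, 0.471, 0.383 and 0.233 CPM (-3.35 ± 0.31, FDR = 1.93e-08). Mpeg1 was at 1.60, 0.825, 2.55 and 1.40 CPM (-1.40 ± 0.25, FDR = 0.00522). Ly86 had 1 count in each of 3 mice and 0 in the other (FDR = 0.0259), and Pld4 was at 0.133, 0.236, 0.510 and 0.117 CPM (FDR = 0.0441).
For all 5 genes the DEP2 mice lay below every CD mouse. With the replicate number as a block, Mpeg1 was no longer called (FDR = 0.0122), which left 2 members. The call of Mpeg1 was also lost with DESeq2, with the group as the only term, with filterByExpr, with all 65 mice in one fit, among RE mice alone and without any single one of DEP2 replicates 1, 2 and 4 or CD replicates 2, 3, 4 and 2M, when 2 members were called. Cd68 at 0.893 to 2.26 CPM overlapped with CD, as did Lgmn, Ctsz and Ctsb.

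Against the later depletion days, 0 of the 9 members were higher in DEP2 in the edgeR test, where 0% of 26383 genes were called higher. At an unadjusted p under 0.05 there were 3 members and 1302 genes, and DESeq2 called 0 members. Ctss was at 6.56% of the CD mean in DEP2 and between 0.437% and 2.87% on the later days, with a log2 difference of 2.18 ± 0.63 (FDR = 0.579). The values of Ctss in DEP2 lay within those of the later days, since DEP21 replicate 3 was at 0.799 CPM.

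**Figure D3:**
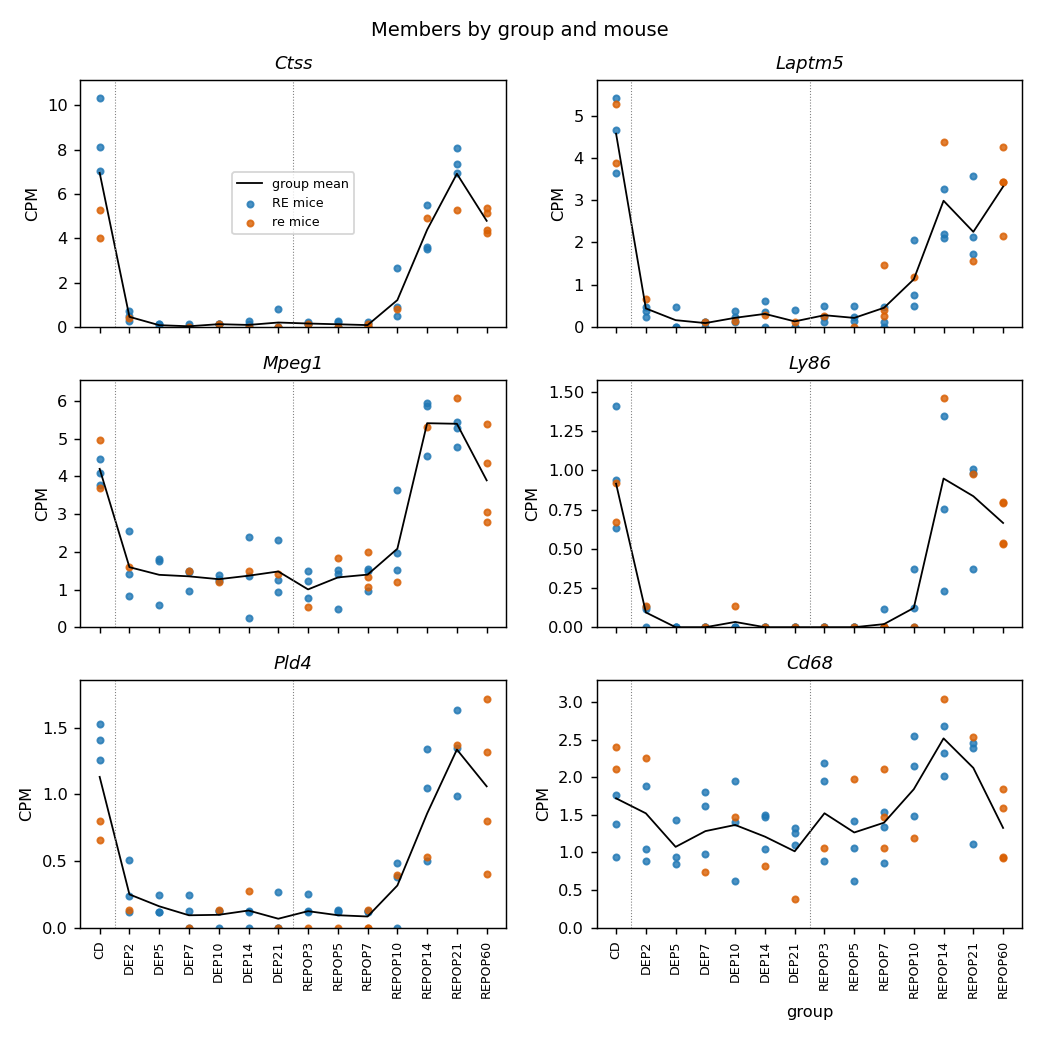
CPM (y axes, from 0) of Ctss, Laptm5, Mpeg1, Ly86, Pld4 and Cd68 in each mouse of CD, the depletion groups and the repopulation groups (x axis, ordered by day), with points coloured by suffix and a line through the group means. All panels except that of Cd68 lie below CD from DEP2 to REPOP7, with intermediate values in REPOP10 and higher values from REPOP14.

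Within 7 days of withdrawal the 14 mice of REPOP3 to REPOP7 were compared with CD. Ctss, Laptm5, Mpeg1, Ly86 and Pld4 were called lower, where 0.103% of 25190 genes were. Ctss was at 0 to 0.246 CPM (median 0.125), and Laptm5 at 0 to 1.46 CPM (median 0.25), with REPOP7 replicate 2 highest at 11 counts. Mpeg1 was at 0.491 to 1.99 CPM (median 1.38), which is 30.1% of the CD mean. Ly86 had a single count over the 14 mice together, in REPOP7 replicate 6, and Pld4 was at 0 to 0.254 CPM. None of the 14 mice reached the lowest CD mouse in any of these 5 genes.
Cd68 was at 0.614 to 2.19 CPM (FDR = 0.876) and overlapped with CD. The log2 fold changes of Lgmn, Ctsz and Ctsb were between -0.12 and -0.03.

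REPOP10 lay between the early days and CD. Ctss was at 0.794, 0.885, 0.4932 and 2.67 CPM, above all 14 earlier mice and below all CD mice. Against REPOP3 to REPOP7, 0 of the 9 members were called higher by edgeR, where 0% of 25529 genes were, with 5 members and 1154 genes at an unadjusted p under 0.05 and 0 members by DESeq2. Ctss had the smallest FDR among the members, 0.0241, with a log2 fold change of 3.14 ± 0.49. Laptm5 was at 1.19, 0.758, 0.4932 and 2.07 CPM and Mpeg1 at 1.19, 1.52, 1.97 and 3.65 CPM, with replicate 4 the highest in both.
Against CD, 2 of the 9 members were called lower, where 0.0754% of 23859 genes were. These were Ctss (log2 fold change -2.62 ± 0.28, FDR = 3.58e-06) and Laptm5 (-2.004 ± 0.288, FDR = 0.000274), both of which were also called with the replicate block. The REPOP10 and CD mice did not overlap for Mpeg1 (FDR = 0.0637), Ly86 (FDR = 0.0467) and Pld4 (FDR = 0.0854) either. Neither call held without REPOP10 replicate 2 or without CD replicate 2, 3 or 4, when 0 members and 0 genes in all were called. Laptm5 was not called without REPOP10 replicate 3, when 1 member and 3 genes in all were. The mean of the REPOP10 mice was 17.4% of CD for Ctss, 24.7% for Laptm5, 49.6% for Mpeg1 and 27.9% for Pld4.

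REPOP14 was then compared with REPOP10. Ctss was at 4.91, 3.52, 3.61 and 5.50 CPM in REPOP14, Laptm5 at 4.38, 3.27, 2.10 and 2.20 CPM, Mpeg1 at 5.30, 4.53, 5.95 and 5.86 CPM, and Pld4 at 0.530, 0.503, 1.05 and 1.34 CPM. All 4 REPOP14 mice lay above all 4 REPOP10 mice in each of these genes, though the share of all genes that did so was not counted. Even so 0 of the 9 members passed the edgeR test, where 0.00408% of 24486 genes were called higher, a single gene, the complement gene C1qc (log2 fold change 3.29 ± 0.44, FDR = 0.00132).
Ctss (1.83 ± 0.34) and Mpeg1 (1.38 ± 0.26) both had an FDR of 0.0529. At an unadjusted p under 0.05 there were 5 members and 862 genes, and DESeq2 called 0 members. Ly86 was at 1.46, 0.755, 0.233 and 1.34 CPM in REPOP14 and had counts in 2 of the 4 REPOP10 mice.

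In REPOP14 against CD, 0 of the 9 members were called by edgeR and 0% of 23937 genes were called lower, with 4 members and 818 genes at an unadjusted p under 0.05 and 0 members by DESeq2. The percent of the CD mean reached in REPOP14 was not alike for the members. The REPOP14 mean was 63.1% of CD for Ctss, 65.3% for Laptm5 and 75.7% for Pld4, but 104% for Ly86, 129% for Mpeg1 and 146% for Cd68. The log2 fold change from CD was -0.72 ± 0.21 for Ctss and 0.37 ± 0.17 for Mpeg1, with FDR = 0.995 for both. Cd68 was at 3.05, 2.01, 2.33 and 2.69 CPM, where CD reached 2.41 CPM (0.65 ± 0.25, FDR = 0.995). Whether the genes differed from each other was not tested.

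In REPOP21 against CD, 0 of the 9 members were called by edgeR, where 0.059% of 23739 genes were called lower, with 2 members and 3997 genes at an unadjusted p under 0.05 and 0 members by DESeq2. Ctss was at 5.29, 6.93, 8.06 and 7.37 CPM, 99.4% of the CD mean, and Mpeg1 was at 6.07, 5.45, 4.78 and 5.28 CPM (128.5%). Laptm5 was at 1.57, 1.73, 2.14 and 3.56 CPM, all below the lowest CD mouse at 3.63 CPM, with 49.2% of the CD mean and a log2 fold change of -1.01 ± 0.24 (FDR = 0.0278).
With the replicate block Laptm5 was called (FDR = 0.00823), making 1 member, and 150 genes in place of 15 were called in all. On the FPKM scale of the authors Laptm5 was at 1.78 ± 0.897 in REPOP21 (SD, n = 4) and 2.53 ± 0.374 in CD (n = 5), a smaller difference than in CPM. Ly86 at 91.3%, Pld4 at 118% and Cd68 at 124% of the CD mean had FDRs between 0.502 and 0.917.

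At 2 months, 0 of the 9 members were called in REPOP60 against CD, where 0% of 24157 genes were called lower, with 1 member and 779 genes at an unadjusted p under 0.05 and 0 members by DESeq2. Ctss was at 4.39, 4.23, 5.16 and 5.38 CPM, which lay within the range of CD and beside the 2 re mice of CD at 5.27 and 4.02 CPM (log2 fold change 0.05 ± 0.23). Laptm5 was at 4.25, 3.44, 3.44 and 2.15 CPM, with 3 of the 4 mice below the lowest CD mouse (-0.46 ± 0.25, 95% interval -0.97 to 0.06). Mpeg1 was at 3.06, 4.36, 2.78 and 5.38 CPM and Cd68 at 0.931, 1.85, 1.59 and 0.942 CPM. The member with the unadjusted p under 0.05 was Cd68 (-0.75 ± 0.36, FDR = 1).

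Lgmn, Ctsz and Ctsb stayed within a narrow band over depletion and repopulation. The group means of Lgmn were between 91.4% of CD in REPOP60 and 102.5% in REPOP14, those of Ctsz between 87.8% in DEP7 and 105% in REPOP14, and those of Ctsb between 95.1% in DEP14 and 101.5% in REPOP14. None was called in any of the 12 comparisons. The CD mean joins both suffixes, while REPOP60 had re mice only. In CD, Lgmn was at 148 CPM in re mice and 166 CPM in RE mice. With the suffix in the fit, the log2 fold change of Lgmn in REPOP60 against CD was -0.03 ± 0.07. The 95% interval of the Ctsb log2 fold change in REPOP21 against CD was -0.15 to 0.08, and that of Lgmn -0.12 to 0.12.

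**Figure D4:**
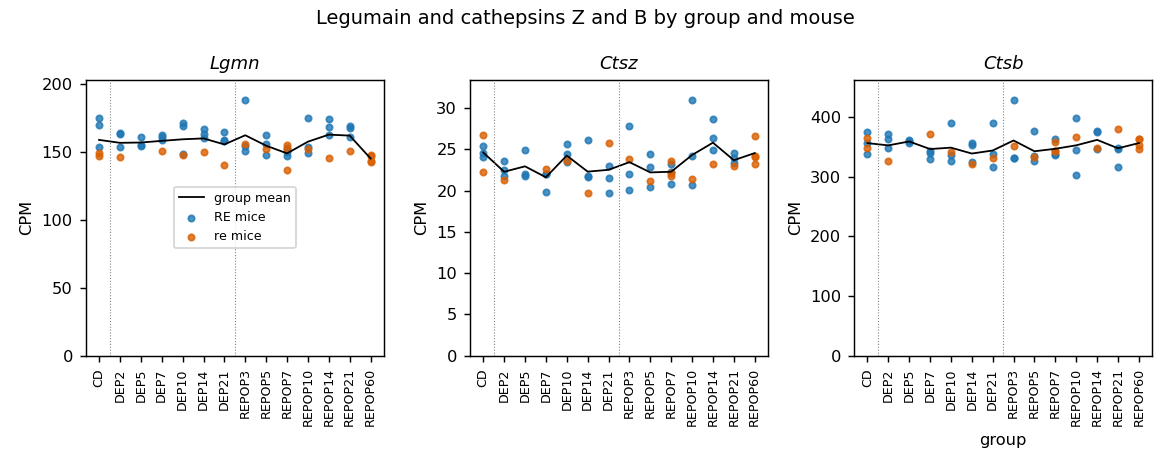
CPM (y axes, from 0) of Lgmn, Ctsz and Ctsb in each mouse of CD, the depletion groups and the repopulation groups (x axis, ordered by day), with points coloured by suffix and a line through the group means. The lines stay near their CD value throughout, and the highest mouse of Lgmn is REPOP3 replicate 4 at 188 CPM.

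Lipopolysaccharide was first examined in mice on control diet. In LPSCD against CD, 0 of the 9 members were called higher by edgeR, where 0% of 23606 genes were, with 4 members and 2486 genes at an unadjusted p under 0.05. DESeq2 called 1 member, Ctss, and 31 genes in all. Ctss was at 13.4, 16.4 and 16.5 CPM in LPSCD, above every CD mouse, with 222% of the mean of all 5 CD mice and a log2 fold change of 1.72 ± 0.23 (FDR = 0.0198) against the 2 re mice of CD at 5.27 and 4.02 CPM. Laptm5 was at 9.39, 10.8 and 11.5 CPM (231% of the CD mean, 1.19 ± 0.24, FDR = 0.129), and Pld4 at 3.31, 2.74 and 2.42 CPM (249.5%, 1.92 ± 0.40, FDR = 0.141).
Mpeg1 at 5.95, 7.57 and 5.36 CPM (FDR = 0.484) and Cd68 at 3.70, 3.39 and 4.59 CPM (FDR = 0.420) also lay above all CD mice. Ly86 at 1.98, 0.914 and 0.893 CPM overlapped with CD. Lgmn at 176, 160 and 181 CPM, Ctsz at 30.0, 26.0 and 31.8 CPM and Ctsb at 402, 328 and 409 CPM overlapped with CD too, with log2 fold changes of 0.21 ± 0.10, 0.24 ± 0.14 and 0.08 ± 0.11. The calls depended on single mice, over all genes as well as for the members. Without LPSCD replicate 1, 2 members (Ctss and Laptm5) and 539 genes in all were called. Without LPSCD replicate 2, 1 member (Ctss) and 10 genes in all were called.

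Other cell types were measured in the same mice. The summed microglial markers were at 96.2 to 110 CPM in LPSCD and 41.2 to 59.4 CPM in CD. The 6 genes of monocytes and neutrophils summed to 1.66 to 3.57 CPM in LPSCD (median 1.70) and to 0 to 4.03 CPM in CD (median 0.586). All 4 of them that were tested had a positive log2 fold change, and 0 were called. The neutrophil granule gene Ngp was at 0.392 to 0.638 CPM in LPSCD and 0 to 0.134 CPM in CD, and S100a8 at 0.510 to 0.661 and 0 to 0.504 CPM. The 6 genes of border macrophages summed to 11.0 to 13.2 CPM, with Pf4 and Cd209f at 0, and F13a1, at 0 in CD, was at 0.132 to 3.06 CPM. The median log2 fold change of the 4 border macrophage genes that were tested was 2, and 0 were called. The 7 genes of pigment epithelium, a tissue next to the retina that is rich in lysosomes, summed to 121 to 264 CPM in LPSCD and 280.5 to 328 CPM in CD, without overlap. Most of that sum was Rlbp1, a gene also used by Mueller glia, with a mean of 175 CPM in LPSCD and 287 CPM in CD, while the median log2 fold change of the 7 genes was 0.87 and 0 were called. Single marker genes were singled out after their values were seen. The part of these cells in the levels of the members was not tested.

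**Figure D5:**
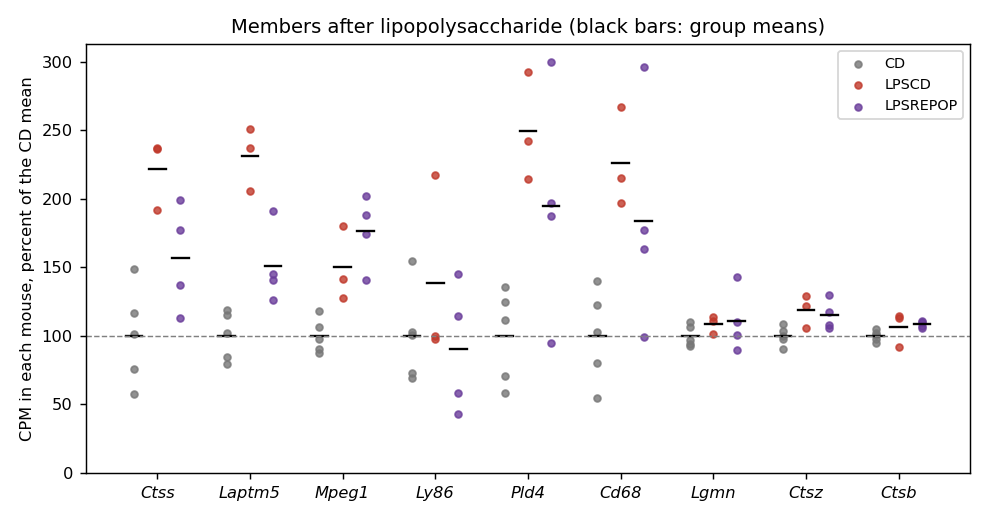
CPM of the 9 members in each mouse of CD (n = 5, grey), LPSCD (n = 3, red) and LPSREPOP (n = 4, purple) as a percent of the CD mean (y axis, from 0), with black bars for the group means. LPSCD lies above CD without overlap for Ctss, Laptm5, Mpeg1, Pld4 and Cd68, and LPSREPOP lies below LPSCD without overlap for Laptm5.

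Whether repopulated retinas differed from control retinas under lipopolysaccharide was read from LPSREPOP against LPSCD. No member was called (0 of 9 by edgeR), where 0% of 24500 genes were called lower, with 2 members and 1973 genes at an unadjusted p under 0.05 and 0 members by DESeq2. Laptm5 was at 6.62, 6.44, 8.75 and 5.78 CPM in LPSREPOP, below all 3 LPSCD mice (log2 fold change -0.62 ± 0.18, FDR = 0.617). Ctss was at 12.3, 9.52, 13.9 and 7.88 CPM, overlapping with LPSCD (-0.50 ± 0.19, FDR = 0.617), and Mpeg1 at 8.47, 7.91, 7.31 and 5.91 CPM (0.23 ± 0.20, FDR = 0.730).
For Cd68 the values were 3.04, 2.82, 5.09 and 1.71 CPM and for Pld4 2.12, 1.07, 3.40 and 2.23 CPM. The 6 genes of monocytes and neutrophils summed to 1.18 to 11.8 CPM in LPSREPOP. The summed microglial markers were at 51.3 to 90 CPM in LPSREPOP, below the 96.2 to 110 CPM of all LPSCD mice, with a median log2 fold change of -0.62 over the 16 genes and 0 called. The part of these in the levels of the members was not tested.

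Over the 16 groups the members differed in which genes they resembled. Correlations were taken between group effects of log2(CPM + 1) after the suffix, over 15882 genes with a mean of at least 1 CPM, which left out Ly86 and Pld4. The points share mice and normalization, so r is a description. Ctss was most like Cx3cr1, the fractalkine receptor of microglia (r = 0.991, 16 groups), C1qc (0.985) and C1qa (0.983), both chains of complement C1q. Ctsb was most like the interferon-induced gene Ifit1 (0.931), Fam129b (0.914) and Rin3 (0.913). The 16 groups include LPSCD and LPSREPOP, where the mean of Ctsb was 106.5% and 108.5% of CD. In the depletion and repopulation groups it was 95.1 to 101.5%. How far the values of r rest on LPSCD and LPSREPOP was not tested. Among the members, r was 0.983 between Ctss and Laptm5, 0.974 between Ctss and Mpeg1, and 0.733 between Ctss and Ctsb. With the other members, r of Ctss was 0.870 for Ctsz, 0.833 for Cd68 and 0.727 for Lgmn.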

How the data were processed

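Retinal RNA was extracted from homogenate with TriPure and sequenced on the BGISEQ-500 platform with single-end reads. The authors aligned reads to mm10 (HISAT2) and deposited raw HTSeq counts for each gene, which are not normalized. FPKM, also deposited, came from StringTie as run by the authors and served to compare levels between genes. Among the FPKM rows, 1 names no gene and was left out. Versions of these tools are not given in the sources used here. Gene positions are from GENCODE M21.

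Groups came from the labels. Each mouse is a replicate. CPM was the count divided by the total count of the mouse. Each comparison was fitted with edgeR 4.0.16 in R 4.3.3 with TMM normalization, 1 coefficient for each group and the quasi-likelihood F test. The title suffix was an additive term, except in LPSREPOP against LPSCD, where all mice were re. Where days were pooled, the contrast was the mean of the days. A gene was tested if 50% or more of the mice of a compared group had a count of 1 or more. Genes were called at an FDR under 0.01, with no fold threshold. The methods of the study name an additive batch term without naming the batches, and the suffix is the only label that splits mice within groups. Standard errors are the log2 fold change divided by the square root of F. Intervals of the percent left (95%) come from the fit, and counting intervals cover counting error only. DESeq2 1.42.0, the likelihood ratio test, RLE, other gene filters, all 65 mice in one fit, each suffix alone, another FDR, a 2-fold rule, the replicate block and leaving out mice were alternatives. Figures were made with Python 3.11.15 and matplotlib 3.10.9.

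Replicate numbers come from the sample descriptions. Same-numbered mice were taken as pairs where the deviations from the group means of every pair correlated above 0.1 over 12347 genes. This held for DEP2 (0.118 to 0.697), REPOP10 (0.235 to 0.718) and REPOP21 (0.199 to 0.689) against CD, and for no comparison once the suffix was removed, since same-numbered mice mostly share a suffix.

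The members and gene lists were chosen with earlier results of these data known. Named genes are the 9 members, called genes of the lists (at most 5 for each list and comparison), 8 comparators fixed by name, and the 3 genes most like Ctss and Ctsb. A result on the further lysosomal genes is not reported here.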

Additional observations from a re-analysis of the deposited data

Results flagged for a closer look

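Each member was examined in each group of 4 to 6 mice for a single mouse far from the others by Dixon's gap ratio. Of 126 sets, 16 held such a mouse, and most of the flagged mice had 3 counts or fewer. The usual chance rate of about 1 in 20 is for continuous values and does not apply to such counts. A lone count among zeros is always flagged, and sets in which every mouse had 0 cannot be. Whether 16 is more than chance gives was therefore not resolved. Ctss stood high in DEP7 replicate 4 (0.1217 CPM), DEP21 replicate 3 (0.799 CPM, 7 counts where the other 3 mice had 0) and REPOP3 replicate 3 (0.2438 CPM). Laptm5 was at 0 in DEP7 replicate 2 and high in REPOP7 replicate 2 (1.456 CPM, 11 counts). Mpeg1 was low in DEP7 replicate 3 (0.966 CPM). Ly86 was at 0 in DEP2 replicate 2, had a single count in DEP10 replicate 1 (0.1344 CPM) and REPOP7 replicate 6 (0.1188 CPM), and was low in REPOP21 replicate 2 (0.3713 CPM). Pld4 was at 0 in DEP10 replicate 2 and REPOP5 replicate 1 and high in DEP21 replicate 2 (0.2641 CPM). Cd68 was low in REPOP21 replicate 2 (1.114 CPM). At high counts, Lgmn stood high in REPOP3 replicate 4 (187.9 CPM) and Ctsb in REPOP5 replicate 2 (376.1 CPM).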

How the results depend on the processing

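Counts of members called changed as follows. DEP2 against CD gave 5 with an FDR of 0.05, the likelihood ratio test or no gene filter (26, 26 and 56 genes in all). It gave 2 (without Mpeg1) with the group as the only term, DESeq2, filterByExpr, all 65 mice or RE mice alone. Those settings called 9, 11, 9, 11 and 7 genes in all. In re mice alone it gave 0, with 0 genes in all. DEP5 to DEP21 against CD gave 4 with filterByExpr, which leaves Ly86 untested, and 0 in re mice alone (17 and 0 genes in all). REPOP3 to REPOP7 against CD gave 3 with filterByExpr and 1 in re mice alone (11 and 2 genes in all). REPOP10 against REPOP3 to REPOP7 gave 1 with an FDR of 0.05, the likelihood ratio test or all 65 mice. Those settings called 2, 4 and 5 genes in all. Without a gene filter it gave 2, with 59 genes in all. REPOP10 against CD gave 0 with the group as the only term or in re mice alone, with 0 genes in all. It gave 3 (with Ly86) with an FDR of 0.05 (87 genes in all) or the likelihood ratio test (48 genes in all). Without a gene filter it gave 4, with 287 genes in all. REPOP14 against REPOP10 gave 2 with the likelihood ratio test, 3 without a gene filter and 1 with all 65 mice. In those settings 7, 46 and 2 genes were called in all. REPOP21 against CD gave 1 (Laptm5) with an FDR of 0.05, the likelihood ratio test or no gene filter. Those settings called 451, 202 and 683 genes in all. LPSCD against CD gave 1 with an FDR of 0.05 or DESeq2 (Ctss), and 1 with the group as the only term (Laptm5, not Ctss). It gave 3 with the likelihood ratio test or no gene filter, and 2 (Ctss and Pld4) with all 65 mice. At an FDR of 0.05, 11 genes were called in all, and the other settings are given below. In re mice alone few mice remain; for the other settings the cause was not tested.

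With the replicate block, DEP2 against CD gave 2 and REPOP21 against CD 1, where 19 and 150 genes were called in all. REPOP10 against REPOP3 to REPOP7 gave 1 (Ctss) and REPOP14 against REPOP10 3 (Ctss, Laptm5 and Mpeg1). There 8 and 46 genes were called in all. No other comparison gave another count of members. The numbers pair no mice in REPOP10 against REPOP3 to REPOP7 or in REPOP14 against REPOP10.

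Leaving out 1 mouse or 1 day at a time (97 refits) gave 2 to 3 members in DEP2 against CD, 5 to 5 in DEP5 to DEP21 and in REPOP3 to REPOP7 against CD, 0 to 2 in REPOP10 against CD and in LPSCD against CD, and 0 to 1 in REPOP10 against REPOP3 to REPOP7 (1, Ctss, without REPOP10 replicate 3) and in REPOP14 against REPOP10 (1, Ctss, without REPOP10 replicate 4). It gave 0 to 0 in the other comparisons. Over all genes, these refits called 8 to 16 in DEP2 and 25 to 43 in DEP5 to DEP21, each against CD. They called 19 to 21 in REPOP3 to REPOP7 and 0 to 182 in REPOP10, each against CD. For REPOP21 and LPSCD against CD the ranges were 1 to 465 and 0 to 539. The ranges were 0 to 6 in REPOP10 against REPOP3 to REPOP7 and 0 to 7 in REPOP14 against REPOP10. For LPSREPOP against LPSCD the range was 0 to 211. In DEP2 against DEP5 to DEP21 the later days were not left out. Where a group keeps 1 mouse of a suffix, that mouse is assumed to vary like the others. RE mice alone could not be fitted for REPOP60 or LPSCD, nor re mice alone for REPOP14 against REPOP10 and DEP2 against DEP5 to DEP21.

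The percent left moved beyond its SD for Cd68 (94.47% in RE mice, 37.84% in re mice) and Ly86 (4.223% in re mice). Over all genes, LPSCD against CD went from 0 called to 43 with the group as the only term, 31 with DESeq2, 75 with the likelihood ratio test, 475 without a gene filter and 885 with all 65 mice, and REPOP21 against CD from 15 to 150 with the block, 78 with DESeq2, 202 with the likelihood ratio test and 683 without a gene filter. DEP2 against CD went from 14 to 56 and DEP5 to DEP21 against CD from 43 to 98 without a gene filter. No called direction of a member reversed. Depth limits Ly86 and Pld4 most, at 1 to 2 counts or 0 in depleted mice.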
